A study of Mus musculus with 908 samples.

Results

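In a mouse model of squamous cell carcinoma of the skin, tumour cells carrying an active reporter were sorted and here selected on the measured TPM of Sprr1a, a small proline-rich protein that keratinocytes build into the cornified envelope. Sprr1a-high cells had Sprr1a at 10 TPM or more and Sprr1a-absent cells had it below 1 TPM, and a library entered only with 2000 or more genes detected at 1 TPM. TPM is a gene's share of the transcripts of its library, corrected for gene length. The rule gave 48 Sprr1a-high cells, 30 on plate CSC1 and 18 on plate CSC2, and 45 Sprr1a-absent cells, 34 on CSC1 and 11 on CSC2. These 93 cells were part of 696 kept libraries over all gates, of 908 deposited. A further 12 reporter-positive cells, with Sprr1a between the limits, were left out of the contrast.

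The study profiled single tumour cells by Smart-seq2, a full-length RNA sequencing protocol, to ask which tumour cells outlast adoptive cell transfer (ACT), an immunotherapy with infused immune cells. Both classes came from the same gate and the same strain, TRE-HrasG12V;SBE-mCherry-PGK-rtTA3, in mice of mixed sex aged P60-P90, with a label of before ACT. Most of these cells were also sequenced under a label of after ACT and of another strain, so treatment and strain are given here as the first label has them. By its name the strain carries activated Hras under a tetracycline-responsive promoter, rtTA3 under the PGK promoter, and an mCherry reporter behind SMAD-binding elements, which report TGF-beta signalling. The sort kept cells positive for integrin α6, CD34, CD44 and mCherry and negative for CD45, CD117, CD140a and CD31. Other gates are used only to see whether the same split gives the same genes: CD44-negative α6-positive cells and α6-negative cells of the same strain before ACT, both without reporter and CD34, and mCherry-positive cells of strain TRE-OVA;TRE-HrasG12V:PGK-rtTA3P2AmCherry after ACT. A further gate of the same strain before ACT, α6-positive CD44-positive cells without reporter and CD34, is given by its share of Sprr1a-high cells alone. All of these gates came from mice of the same age range, P60-P90. No animal or tumour is named in the labels, so the gate was 1 sample, cells were not replicates, and no difference below carries a test. Sprr1a chose the classes, and every value of this contrast is therefore a description.

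The cornified envelope is the protein shell that replaces the plasma membrane of a keratinocyte at the end of its life in the epidermis. Keratinocytes leave the basement membrane, switch on precursors such as the small proline-rich proteins, involucrin and cornifelin, and transglutaminases then cross-link these into the shell. Basal keratinocytes hold on to the basement membrane through laminin-332, collagen XVII, collagen VII and the integrins α6β4 and α3β1.

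Sprr1a itself spanned a wide range within the high class. The lowest Sprr1a-high cell had a TPM of 10.3, the median cell 144.7 and the highest 17669, whereas all 45 Sprr1a-absent cells were listed at exactly 0. The cells nearest the upper limit had 10.3 inside it and 8.23 outside it, and no cell lay between 0 and 1.77. The 3 highest cells held 54.6% of the summed Sprr1a TPM, so a few cells set the mean of 1297. By plate the median was 135.3 on CSC1 and 160 on CSC2.

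Sequencing depth could not be read from TPM, which keeps no read number, so genes detected per cell are given in its place. Their median was 7518.5 in Sprr1a-high cells, with a range of 2370 to 9780, and 7883 in Sprr1a-absent cells, with a range of 2139 to 8999. A group of 8 ribosomal rows took a median of 71.8% of the TPM in Sprr1a-high cells and 70.6% in Sprr1a-absent cells. Spike-in RNA took a median of 0.274% and 0.298% in the same order of classes, but reached 79.7% in 1 Sprr1a-high and 76.6% in 1 Sprr1a-absent library of CSC2. Spike-in RNA was at or below 10% in 47 of 48 Sprr1a-high and 43 of 45 Sprr1a-absent libraries. Keratinocyte markers led in all 93 cells. All 12 of them were detected in at least 10% of both classes, and their summed TPM had a median of 21056 in Sprr1a-high and 13211 in Sprr1a-absent cells. Of the markers of other cell types, the T cell genes Cd3e, Cd8a and Cd4 were listed at 0 in every cell of both classes. Trac, another T cell gene, was not at 0 throughout either class. Of 9 lymphocyte markers, these included, 6 were at 0 in all Sprr1a-high and 8 in all Sprr1a-absent cells. Their summed TPM reached 6.22 in Sprr1a-high and 2.58 in Sprr1a-absent cells. Of 7 endothelial markers, 4 (Kdr, Tek, Emcn and Cldn5) were at 0 in every cell of both classes. The summed TPM of all 7 reached 91.5 in Sprr1a-high and 51.3 in Sprr1a-absent cells. That of 7 pericyte or muscle markers had a median of 0 and a highest value of 156.2 in Sprr1a-high cells. In Sprr1a-absent cells it had a median of 1.4 and a highest value of 236.2. The summed TPM of 9 myeloid markers had a median of 1.43 in Sprr1a-high cells, with a highest value of 160, and a median of 0 in Sprr1a-absent cells, with a highest value of 26.6. Fibroblast markers summed to a median of 10.05 TPM in Sprr1a-high cells, with a highest value of 103.9, and to 12.9 TPM in Sprr1a-absent cells, with a highest value of 1906. The part of these few transcripts in the differences below was not tested.

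Many of these cells had been sequenced again under a label of the other treatment. Among kept libraries, 72 pairs joined a CSC1 library with one of plate OT_C and 25 pairs joined a CSC2 library with one of plate OT_D, both labelled after ACT, with a median correlation of whole profiles of 0.933 in each set of pairs. The well position was the same in 71 of the 72 pairs and in 25 of the 25. Which label is right cannot be told from the files. The second libraries were used as a repeat measurement of the same cells: of 46 Sprr1a-high cells with a second library, 43 again had Sprr1a at 10 or more, 2 lay between the limits and 1 was below 1. Of 40 Sprr1a-absent cells with one, none reached 10, 7 lay between the limits, up to 8.47, and 33 were below 1. A further pair of CSC1 wells resembled each other as closely as such repeats do, and with that pair merged the gate held 48 Sprr1a-high and 44 Sprr1a-absent cells.

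Differences were read on 2 scales. The log2 fold is the log2 of the ratio of mean TPM plus 1, which a few very high cells can set, and the mean log2 difference is the difference of the mean of log2(TPM + 1), to which every cell contributes alike. A gene was counted when both were at least 1 (higher in Sprr1a-high cells) or both at most -1 (lower). Of 12880 genes other than Sprr1a that reached a TPM of 1 in at least 10% of either class, 1.58% were counted higher and 2.31% lower. On mean TPM alone, 2.93% of them were at least 2-fold higher and 7.86% at least 2-fold lower, and the median log2 fold of all 12880 was -0.26. On plate CSC2 alone 4.20% were counted higher and 5.75% lower. The share of lower genes among all genes is the level against which the lower lists below have to be read.

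**Figure D1:**
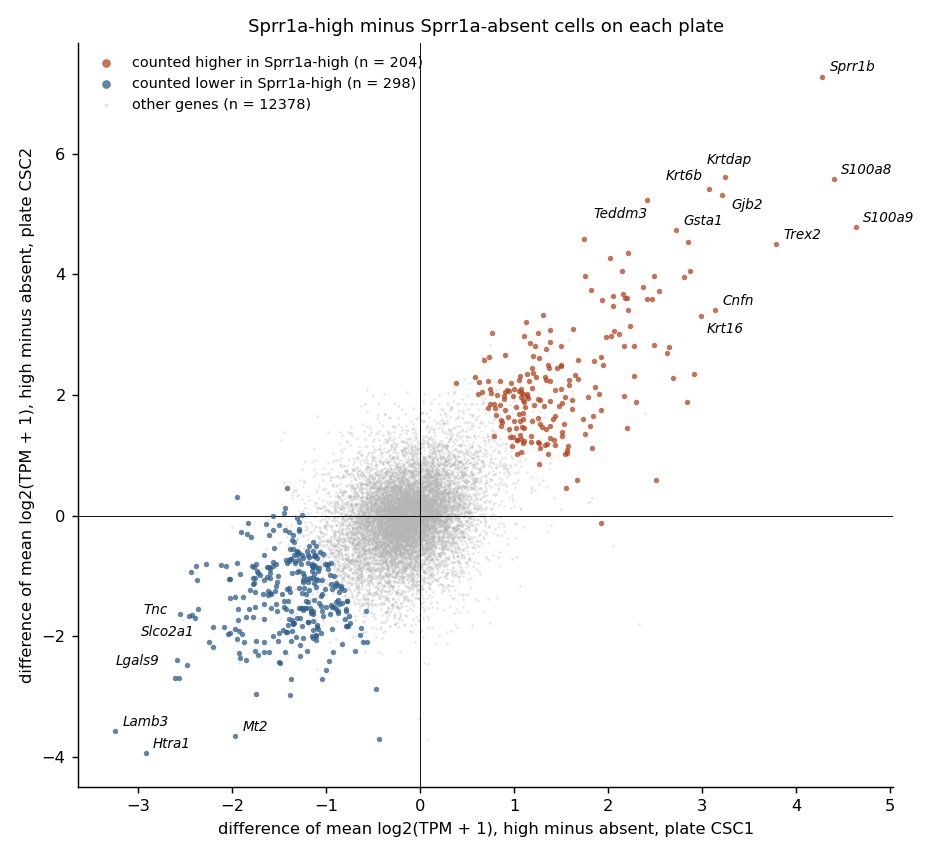
Mean log2 difference of each tested gene, Sprr1a-high minus Sprr1a-absent cells, on plate CSC1 (x axis) and plate CSC2 (y axis); red points are the genes counted higher, blue points those counted lower and grey points all other genes. The named genes Sprr1b, S100a8 and S100a9 lie far out on both plates in one direction and Lamb3 and Htra1 in the other.

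Precursors of the cornified envelope were among the genes with the largest differences, higher in Sprr1a-high cells. Of 34 tested genes of this list, 24 were at least 2-fold higher and 1, Tgm3, at least 2-fold lower, with a median log2 fold of 2.41 against -0.26 for all genes. Some members passed the detection filter through the Sprr1a-high class alone, and over all 56 listed genes in the files the median was 0.61. Within plates the list median was 1.70 on CSC1 and 2.39 on CSC2. Sprr1b, the closest relative of Sprr1a, had a lowest, median and highest TPM of 0, 650 and 9359 in Sprr1a-high cells, against 0, 9.34 and 898 in Sprr1a-absent cells. It was detected in 45 of 48 Sprr1a-high and 33 of 45 Sprr1a-absent cells, and 21 Sprr1a-high cells exceeded every Sprr1a-absent cell. The log2 fold was 4.76 and the mean log2 difference 5.14, with 4.28 on CSC1 and 7.28 on CSC2. Sprr1b was thus present in most cells of both classes, with overlapping ranges, at different levels.

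Cnfn, cornifelin, behaved more like an on-off gene. Its lowest, median and highest TPM were 0, 5.48 and 3895 in Sprr1a-high cells, against 0, 0 and 15.9 in Sprr1a-absent cells. It was detected in 26 of 48 Sprr1a-high cells and in 3 of 45 Sprr1a-absent cells, and 21 Sprr1a-high cells lay above the highest Sprr1a-absent cell. In all, 22 Sprr1a-high cells had no Cnfn at a TPM of 1, so the 3 marker genes of the class did not come together in every cell.

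Secreted proteins of the upper epidermis followed the same order. Krtdap, keratinocyte differentiation-associated protein, had a median TPM of 1176 and a highest value of 55576 in Sprr1a-high cells, against a median of 26 and a highest value of 5579 in Sprr1a-absent cells. Sbsn, suprabasin, had a median of 140.8 and a highest value of 9326 in Sprr1a-high cells, against 11.5 and 300.9 in Sprr1a-absent cells. Both ranges started at 0 in each class and overlapped, with 15 Sprr1a-high cells above all Sprr1a-absent cells for Sbsn and 3 for Krtdap. Dmkn, dermokine, averaged 904 TPM in Sprr1a-high and 210 TPM in Sprr1a-absent cells.

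The cross-linking and scaffold proteins were present at lower levels. Tgm1, the membrane-anchored transglutaminase that joins the precursors, averaged 10.8 TPM in Sprr1a-high and 1.01 TPM in Sprr1a-absent cells, and was detected in 66.7% and 22.2% of them. Ivl, involucrin, had a median TPM of 14.5 in Sprr1a-high and 4.88 in Sprr1a-absent cells, with highest values of 774 and 73.6. The plakins Evpl and Ppl, which anchor the envelope to keratin filaments, had log2 folds of 1.70 and 1.01. Tgm3, the transglutaminase of the late envelope, was split between the scales: its mean TPM was 1.89 in Sprr1a-high and 5.24 in Sprr1a-absent cells, yet it was detected in 29.2% of Sprr1a-high and 13.3% of Sprr1a-absent cells. The cystatin-like envelope proteins Stfa3 and Csta1 had almost the same mean TPM in both classes (466.8 against 472.2 for Stfa3, and 115.6 against 107.6 for Csta1), while their mean log2 differences were 2.35 and 1.38. The highest Sprr1a-absent cell had 7629 TPM of Stfa3, against 3776 TPM in the highest Sprr1a-high cell. The stefins, the Sprr2 genes and the keratins 6 and 16 have near-identical copies, and the labels do not say how reads shared between copies were divided, so the split within these families is uncertain.

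Genes around Sprr1a were then listed by position. Sprr1a lies on the minus strand of chromosome 3 at chr3:92483952-92485895 (mm10), inside the epidermal differentiation complex, a cluster of genes for envelope precursors. Within 1000 kb, 57 protein-coding genes were annotated, Sprr1a included, and all were in the files. Besides Sprr1a, 18 passed the filter, of which 13 were at least 2-fold higher and none at least 2-fold lower, and 7 were counted higher: Sprr1b, Sprr2d, Sprr2h, Sprr2j-ps, Gm9774, Ivl and Lce3c. On plate CSC2 alone, Sprr2d had a log2 fold of -0.18 and Prr9, which was 2-fold higher but not counted, one of -1.25. The median log2 fold of the 18 was 2.82. A gene passes the filter more easily where 1 class is high, and the 18 are no account of all 57.

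The neighbours differed in how many cells carried them. Sprr2h was detected in 33 of 48 Sprr1a-high and 10 of 45 Sprr1a-absent cells, Sprr2d in 13 and 3, and Lce3c in 14 and 2. Sprr2e was found in 7 Sprr1a-high cells, up to 388.7 TPM, and listed at 0 in every Sprr1a-absent cell. Sprr2a2, in contrast, was abundant in both classes, with a median TPM of 163.8 in Sprr1a-high and 87.1 in Sprr1a-absent cells, detection in 44 of 48 and 43 of 45, and a mean log2 difference of 0.01 that was 0.82 on CSC1 and -1.37 on CSC2. The annotated span of Sprr2a2 overlaps that of Sprr2a1. Lor, loricrin, the major precursor of the late envelope, was detected in 1 cell of each class, Sprr3 in 1 Sprr1a-high cell, and the filaggrin relatives Flg2, Hrnr and Rptn in 1 cell of the 2 classes or none. Of the annotated Lce1 genes, Lce1d was detected in 1 and Lce1g in 2 Sprr1a-high cells and none in a Sprr1a-absent cell. Tchh was detected in 10 of 48 Sprr1a-high and 13 of 45 Sprr1a-absent cells, with means of 0.62 and 1.21 TPM, and Crnn in 4 and 2 cells. The complex was thus seen mainly through its Sprr genes, Ivl and some Lce3 genes, with Lor, Flg2, Hrnr and Rptn at or near 0 in both classes.

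**Figure D2:**
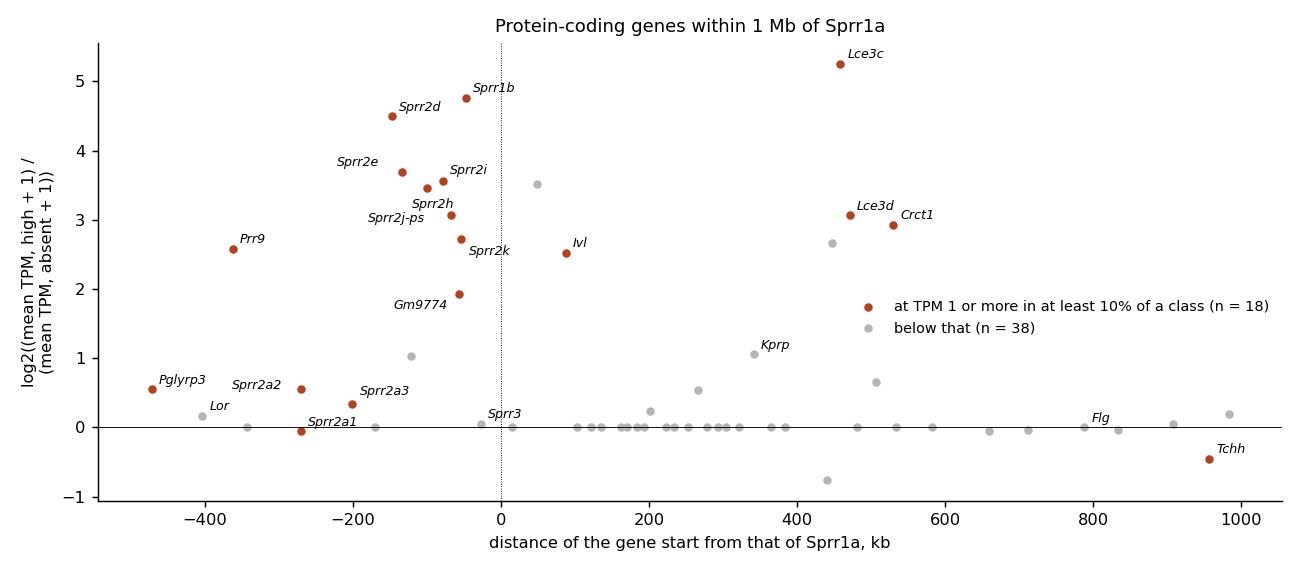
Log2 fold of mean TPM plus 1, Sprr1a-high over Sprr1a-absent cells (y axis), of the protein-coding genes within 1 Mb of Sprr1a against the distance of their starts in kb (x axis). Red points passed the detection filter and grey points did not; 13 of the 18 red points lie above 1, and Lor, Flg and Sprr3 lie near 0 because they were hardly detected. Points whose Sprr1a-absent mean is 0, such as Sprr2e, depend on the added 1.

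The promoters of the 2 Sprr1 genes are shown because the genes are neighbours and both were higher in the same cells, together with that of Krtdap, which lies on another chromosome. Sequences are the 250 bases before the annotated start in RefSeq, build GRCm38.p6, read 5′ to 3′ on the gene's strand. Capitals mark TGANTCA, the site of AP-1 (a FOS and JUN dimer) with any base allowed at its centre, and TATAAA, the TATA box. Both strands were searched and the motifs do not overlap in these windows.
Sprr1a, chr3:92485882-92486131, minus strand: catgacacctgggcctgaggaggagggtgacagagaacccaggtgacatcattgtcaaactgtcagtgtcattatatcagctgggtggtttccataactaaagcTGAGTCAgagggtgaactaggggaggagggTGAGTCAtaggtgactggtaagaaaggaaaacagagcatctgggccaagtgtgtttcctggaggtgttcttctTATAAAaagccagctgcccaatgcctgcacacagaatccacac
Sprr1b, chr3:92438780-92439029, minus strand: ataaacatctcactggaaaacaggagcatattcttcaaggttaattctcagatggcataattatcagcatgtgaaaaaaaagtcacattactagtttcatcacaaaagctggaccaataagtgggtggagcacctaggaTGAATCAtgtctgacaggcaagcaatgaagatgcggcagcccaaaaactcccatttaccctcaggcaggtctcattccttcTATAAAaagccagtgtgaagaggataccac
Krtdap, chr7:30787655-30787904, plus strand: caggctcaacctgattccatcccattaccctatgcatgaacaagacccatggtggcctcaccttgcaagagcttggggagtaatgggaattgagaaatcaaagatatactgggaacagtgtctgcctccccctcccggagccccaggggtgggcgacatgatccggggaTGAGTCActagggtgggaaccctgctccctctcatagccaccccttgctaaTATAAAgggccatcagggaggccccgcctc
The Sprr1a window held 2 matches to TGANTCA, and a TATAAA that began 43 bases before the start. The Sprr1b window held 1 TGANTCA and a TATAAA at 30 bases, and the Krtdap window 1 TGANTCA at 81 bases and a TATAAA at 30. The centre base of the TGANTCA match was A in Sprr1b and G in Sprr1a and Krtdap. Among the 27025 genes of the table, 7.82% had TGANTCA and 14.3% had TATAAA in a window of this length. The windows of Cnfn, S100a9 and Lamb3 held neither motif, and that of S100a8 held TATAAA alone. A match is a string of letters and does not show binding.

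The AP-1 subunits themselves differed little between the classes. Jun averaged 62.7 TPM in Sprr1a-high and 67.2 TPM in Sprr1a-absent cells, Fos 144.99 and 156.1 TPM, Junb 105.98 and 95.9 TPM, and Fosl1 15.9 and 18.8 TPM. None of the 19 tested genes of the immediate early list was at least 2-fold higher or lower.

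Alarmins and keratins of the stressed or wounded epidermis were another group of large differences. Of 13 tested genes, 8 were at least 2-fold higher and none 2-fold lower, with a median log2 fold of 2.24, and of 0.70 over all 20 listed genes in the files. Within plates the median was 1.95 on CSC1 and 2.70 on CSC2, above that of the envelope list on each, and the median of the mean log2 differences was 1.54, against 1.19 for the envelope list. S100a8 and S100a9 form calprotectin, a calcium- and zinc-binding alarmin that neutrophils and stressed keratinocytes release. S100a8 had a lowest, median and highest TPM of 0, 154.2 and 10603 in Sprr1a-high cells, against 0, 6.26 and 930 in Sprr1a-absent cells. S100a9 had 0, 183.8 and 16240 in Sprr1a-high cells, against 0, 0 and 213.6 in Sprr1a-absent cells. Both subunits were detected in the same cell in 42 of 48 Sprr1a-high and 16 of 45 Sprr1a-absent cells. For S100a9, 23 Sprr1a-high cells lay above all Sprr1a-absent cells. The neutrophil marker Ly6g was listed at 0 in every cell of both classes. It was the only 1 of 9 myeloid markers at 0 in all Sprr1a-high cells. Of the 9, 2 were detected in at least 10% of Sprr1a-high and 1 in at least 10% of Sprr1a-absent cells. Whether other cells added to S100a8 and S100a9 was not tested.

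Among keratins, Krt6b and Krt16, induced in wounds and hyperplasia, had the largest mean log2 differences of those named here, 3.83 and 3.22. Krt16 had a lowest, median and highest TPM of 12.4, 3599 and 11002 in Sprr1a-high cells, against 0, 154.4 and 7376 in Sprr1a-absent cells. Krt6b had 0, 521.6 and 4684 in Sprr1a-high cells, against 0, 19.4 and 2229 in Sprr1a-absent cells. Krt6a averaged 3835 TPM in Sprr1a-high and 2193 TPM in Sprr1a-absent cells, below a 2-fold difference, and Krt17 1175 and 1079 TPM. Slpi, a secreted protease inhibitor, averaged 553 TPM in Sprr1a-high and 12.7 TPM in Sprr1a-absent cells, and the beta-defensin Defb14 117.3 and 5.38 TPM. The other S100 genes did not share this direction: none of 9 was at least 2-fold higher and 3, S100a4, S100a6 and S100a10, were at least 2-fold lower. S100a10, the annexin A2 partner, had a median TPM of 148.2 in Sprr1a-high and 484.9 in Sprr1a-absent cells.

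The keratins of ordinary suprabasal layers were split between the scales. Krt1 was detected in 70.8% of Sprr1a-high and 73.3% of Sprr1a-absent cells and Krt10 in 62.5% and 66.7%, with mean log2 differences of 0.40 and 0.16. Their mean TPM were higher in Sprr1a-high cells (80.1 against 11.2 for Krt1, and 10.7 against 4.65 for Krt10) but the medians were close, 5.36 against 7.22 for Krt1 and 2.45 against 2.35 for Krt10. Of 17 tested early suprabasal genes, 10 were at least 2-fold higher on mean TPM, Krt1 and Krt10 included, and none lower. The desmosomal cadherin Dsg1b had a median TPM of 33.8 in Sprr1a-high and 0 in Sprr1a-absent cells, with highest values of 245.1 and 94.6. Lypd3, a surface protein of suprabasal keratinocytes, had a median of 367.7 in Sprr1a-high and 42.5 in Sprr1a-absent cells, and the calmodulin-like Calml3 26.5 and 0.

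**Figure D3:**
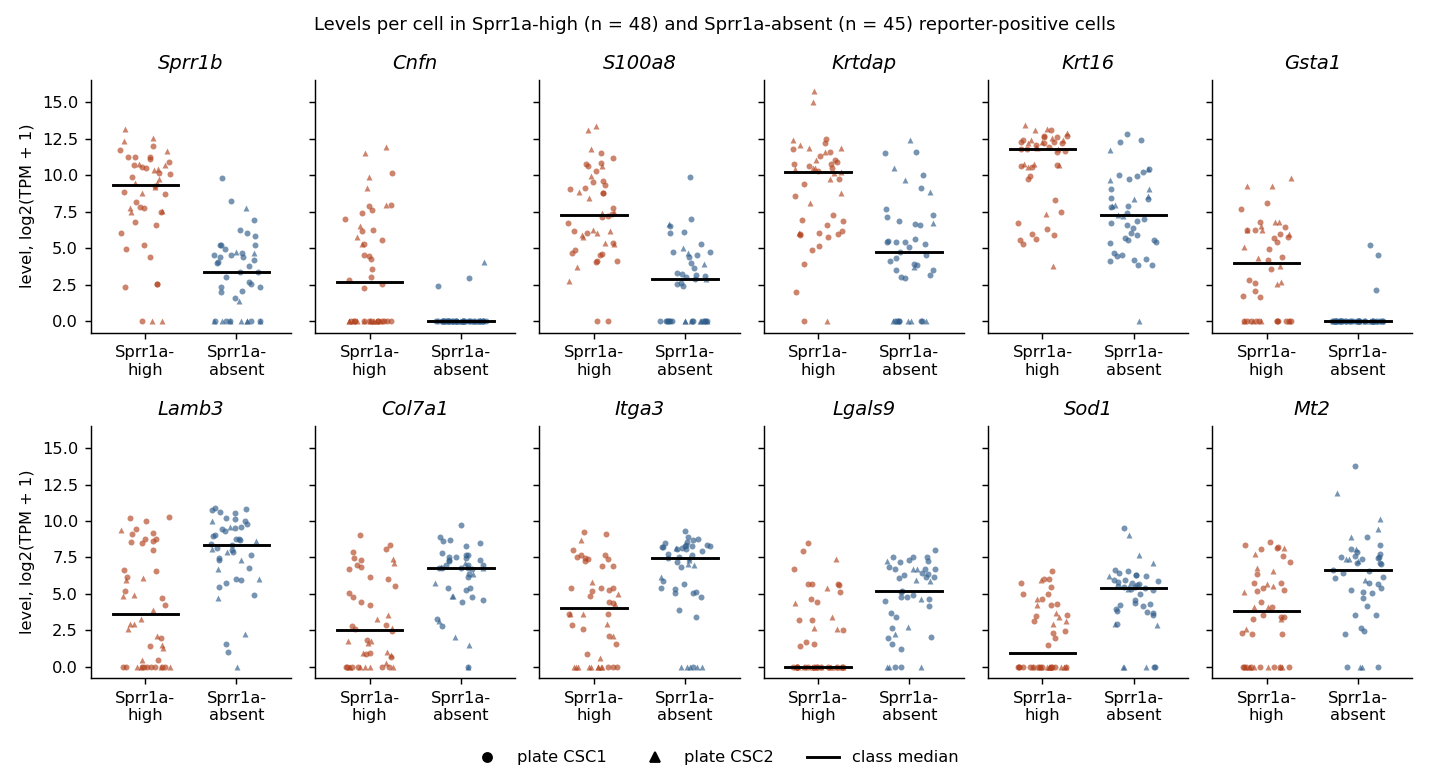
Level of 12 genes in every cell as log2(TPM + 1) (y axis), Sprr1a-high cells on the left of each panel in red and Sprr1a-absent cells on the right in blue, with circles for plate CSC1, triangles for plate CSC2 and a bar at the class median. The classes overlap in every panel; Cnfn and Gsta1 are at 0 in nearly all Sprr1a-absent cells, and Lgals9 has a median of 0 in Sprr1a-high cells.

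Serine proteases and their inhibitors, which control the shedding of corneocytes, were higher in part. Of 24 tested genes, 12 were at least 2-fold higher and none lower, with a median log2 fold of 1.05. The kallikrein Klk10 had a median TPM of 72.1 in Sprr1a-high and 6.41 in Sprr1a-absent cells, and Klk13 was detected in 29 of 48 and 6 of 45 cells. Spink5, the kallikrein inhibitor LEKTI, was detected in 30 of 48 Sprr1a-high and 5 of 45 Sprr1a-absent cells, with highest values of 692 and 24.5 TPM. Klk6 showed the largest log2 fold of the list, 6.68, from a mean of 363.6 TPM in Sprr1a-high and 2.55 TPM in Sprr1a-absent cells, but was detected in 35.4% and 24.4% of them, with a mean log2 difference of 0.94 that left it uncounted. Protease inhibitors of the basal and suprabasal cell such as Serpinb5 (180.8 TPM in Sprr1a-high and 143.5 TPM in Sprr1a-absent cells) differed little.

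Genes of the lipid barrier, which lay down ceramides and fatty acids between the cornified cells, numbered 37 tested, 16 at least 2-fold higher and none 2-fold lower, with a median log2 fold of 0.82. Abca12, the lipid transporter of lamellar granules, had a median TPM of 16.9 in Sprr1a-high and 0 in Sprr1a-absent cells and was detected in 37 of 48 and 11 of 45. Elovl4, which elongates very long chain fatty acids, had a median of 63.99 in Sprr1a-high and 6.36 in Sprr1a-absent cells. Fabp5, the epidermal fatty acid binding protein, had a median of 3570 in Sprr1a-high and 174.6 in Sprr1a-absent cells, with nearly equal highest values of 35804 and 32319. The lipoxygenase gene Alox12b was detected in 37.5% of Sprr1a-high cells and listed at 0 in all Sprr1a-absent cells. The sterol synthesis gene Hmgcs1 of the same list did not reach a 2-fold difference, with an average of 20.2 TPM in Sprr1a-high and 15.4 TPM in Sprr1a-absent cells.

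Junction genes divided by type. Of 13 desmosomal genes, 5 were at least 2-fold higher, and Dsg2, the desmoglein of simple and basal epithelia, was the 1 that was lower, with 1.41 TPM in Sprr1a-high and 4.49 TPM in Sprr1a-absent cells. Perp, a desmosomal tetraspan protein and p53 and p63 target, had a median TPM of 792 in Sprr1a-high and 258.1 in Sprr1a-absent cells. Of the connexin genes described here, Gjb2 and Gjb6 (connexins 26 and 30) were higher and Gjb5 lower. Gjb2 had a lowest, median and highest TPM of 1.38, 516.96 and 2175 in Sprr1a-high cells, against 0, 7.66 and 1609 in Sprr1a-absent cells. Gja1, connexin 43, averaged 108.8 and 98.6 TPM in the 2 classes, and the tight junction claudin Cldn1 10.6 and 5.07 TPM. Of 19 tested genes of the list of tight junctions, claudins and connexins, 2 were at least 2-fold higher and 5 lower, with a median log2 fold of 0.11. Cldn7, another claudin, averaged 0.512 TPM in Sprr1a-high and 6.30 TPM in Sprr1a-absent cells.

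Transcription factors of terminal differentiation were higher while most of the list was level. Of 40 tested, 8 were at least 2-fold higher and none lower, with a median log2 fold of 0.14. Ovol1, a zinc finger repressor that acts in keratinocytes leaving the cell cycle, had a median TPM of 18.1 in Sprr1a-high and 0 in Sprr1a-absent cells, and was detected in 36 of 48 and 13 of 45. The grainyhead factors Grhl1 and Grhl3, which act on barrier genes, had medians of 11.9 and 17.3 in Sprr1a-high cells, against 0.40 and 0 in Sprr1a-absent cells. Zfp750, a late differentiation factor, had a median of 37.99 in Sprr1a-high and 4.73 in Sprr1a-absent cells, Elf3 was detected in 45.8% and 8.89%, and Klf4 averaged 30.5 and 14.8 TPM, just under a 2-fold difference. Trp63, the basal epithelial master factor, averaged 47.1 TPM in Sprr1a-high and 82.4 TPM in Sprr1a-absent cells, and Grhl2 11.2 and 19.8 TPM. Retinoid genes gave 5 of 14 at least 2-fold higher and 1 lower. Crabp2, which carries retinoic acid to its receptors, had a median of 197.4 in Sprr1a-high and 39.5 in Sprr1a-absent cells, and Rdh12, a retinal reductase, 13.7 and 0.

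**Figure D4:**
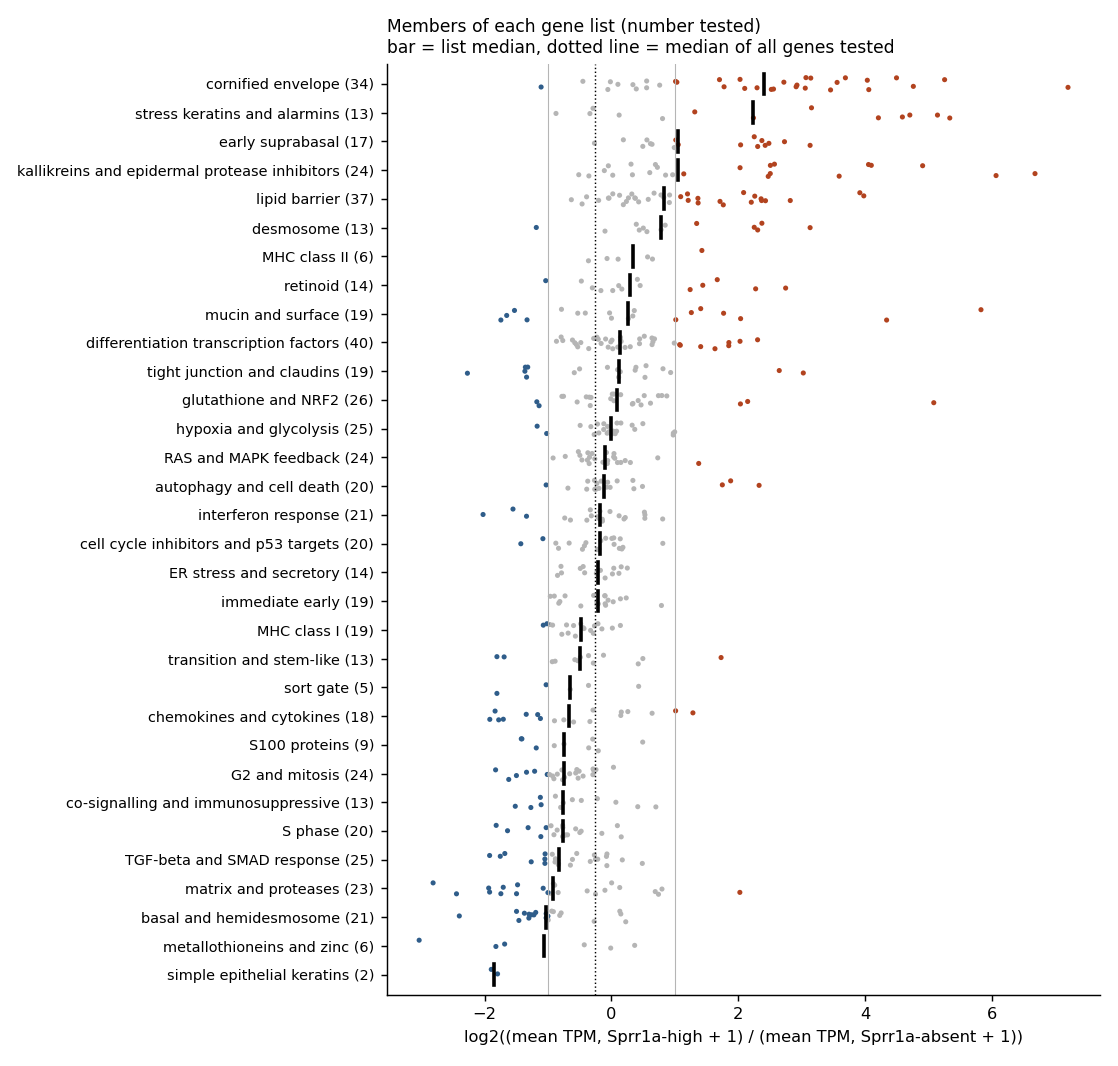
Log2 fold of mean TPM plus 1, Sprr1a-high over Sprr1a-absent cells (x axis), of the tested members of each gene list (rows, number of members in brackets); red points are at least 2-fold higher, blue points at least 2-fold lower, bars mark list medians and the dotted line the median of all genes, -0.26. The cornified envelope list has the highest median, 2.41, and the 2 tested simple epithelial keratins the lowest, -1.85, which was -0.05 over all 6 on that list.

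Genes that fasten basal keratinocytes to the basement membrane stood out on the lower side. Of 21 tested genes of the basal and hemidesmosome list, 12 were at least 2-fold lower in Sprr1a-high cells and none higher, with a median log2 fold of -1.03. Lamb3, the beta chain of laminin-332, had a lowest, median and highest TPM of 0, 11.1 and 1226 in Sprr1a-high cells, against 0, 319.4 and 1884 in Sprr1a-absent cells. It had the largest mean log2 difference of all counted lower genes, -3.59, with -3.24 on CSC1 and -3.58 on CSC2. Lama3, the alpha chain, had a median of 9.04 in Sprr1a-high cells, against 135.8 in Sprr1a-absent cells. The gene of Lamb3 overlaps others on both strands, that of Htra1 overlaps Fgfr2, that of Sod1 Scaf4 and that of Clic3 Paxx. The labels do not say whether the counting used strand, and these levels are uncertain to that extent.

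The receptors and anchors of laminin-332 were lower with it. Itga3, the α3 integrin chain, had a lowest, median and highest TPM of 0, 15.01 and 595 in Sprr1a-high cells, against 0, 171.9 and 641 in Sprr1a-absent cells. Col7a1, collagen VII of the anchoring fibrils, had 0, 4.77 and 517.8 in Sprr1a-high cells, against 0, 110 and 844 in Sprr1a-absent cells. Itgb4 averaged 183.7 TPM in Sprr1a-high and 376.04 TPM in Sprr1a-absent cells, Itgb1 41.3 and 108.5 TPM, Col17a1 91.5 and 161.9 TPM, and Plec 64.8 and 150 TPM. Cav1, caveolin 1, had a median of 6.04 in Sprr1a-high and 93.6 in Sprr1a-absent cells. The ranges overlapped for each of these genes, and the highest Sprr1a-high cells reached the levels of the Sprr1a-absent class. Basal keratins were close: Krt14 averaged 7462 TPM in Sprr1a-high and 6381 TPM in Sprr1a-absent cells and Krt5 1803 and 1645 TPM, and both were detected in every cell.

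The genes of the sort markers, given because the gate was drawn on these proteins, were lower in part. Itga6 had a median TPM of 12.6 in Sprr1a-high and 83.2 in Sprr1a-absent cells, and was detected in 43 of 48 and 44 of 45. Cd34 was detected in 12 of 48 Sprr1a-high and 20 of 45 Sprr1a-absent cells, with a mean log2 difference of -1.44 on CSC1 and -0.23 on CSC2. Cd44 had a median of 284.4 in Sprr1a-high and 360.6 in Sprr1a-absent cells and was detected in all. Transcripts of the mCherry reporter were not analysed here.

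TGF-beta response genes, which the reporter of this gate reads, were on the lower side. Of 25 tested, 7 were at least 2-fold lower and none higher, with a median log2 fold of -0.83. Thbs1, thrombospondin 1, was detected in 15 of 48 Sprr1a-high and 31 of 45 Sprr1a-absent cells, and Inhba, the activin A subunit, in 15 and 25. The inhibitory SMAD gene Smad7 (2.99 TPM in Sprr1a-high and 2.55 TPM in Sprr1a-absent cells) and Ski were not lower by 2-fold, and Tgfbr1 and Tgfbr2, the receptor genes, had log2 folds of -0.55 and -0.62.

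Matrix genes and the proteases that cut matrix went the same way, 10 of 23 tested at least 2-fold lower and 1, Mmp13, higher. Tnc, tenascin C of wounds and tumour edges, had a lowest, median and highest TPM of 0, 0 and 270 in Sprr1a-high cells, against 0, 28.6 and 686 in Sprr1a-absent cells. Plau, urokinase, averaged 146.2 TPM in Sprr1a-high and 410 TPM in Sprr1a-absent cells, with a mean log2 difference of -1.91 on CSC1 and -0.27 on CSC2. Mmp13 had a mean of 56.8 TPM in Sprr1a-high and 13.2 TPM in Sprr1a-absent cells but was detected in 14.6% and 28.9% of them, with a highest value of 2571 TPM in Sprr1a-high and 241.8 TPM in Sprr1a-absent cells. Htra1, a secreted protease linked to TGF-beta signalling, had a median of 1.56 in Sprr1a-high and 75.7 in Sprr1a-absent cells and was the second largest difference on the lower side. Other lower genes of this kind were Agrn, agrin, with medians of 1.77 in Sprr1a-high and 28.3 in Sprr1a-absent cells, and the tetraspan surface gene Tm4sf1 with 0 and 51.6.

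Genes of a mesenchymal or stem-like shift had no single direction, with 1 of 13 tested at least 2-fold higher and 2 lower. Hmga2, a chromatin protein of invasive carcinoma, had a median of 1.46 TPM in Sprr1a-high and 18.2 TPM in Sprr1a-absent cells. Snai2 averaged 5.10 TPM in Sprr1a-high and 10.7 TPM in Sprr1a-absent cells, and Vim 17.9 and 25.6 TPM. Pitx1, a homeobox gene of stratified tumours, was higher, detected in 21 of 48 Sprr1a-high and 2 of 45 Sprr1a-absent cells. The simple epithelial keratins Krt8 and Krt18 were lower, with Krt18 detected in 23 of 48 Sprr1a-high and 29 of 45 Sprr1a-absent cells. Epcam, an adhesion protein of simple and proliferating epithelia, had a median of 11.03 in Sprr1a-high and 68.3 in Sprr1a-absent cells, and 11 Sprr1a-absent cells lay above every Sprr1a-high cell.

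Genes that speak to immune cells were mostly level or lower in Sprr1a-high cells. Of 13 co-signalling and immunosuppressive genes, 4 were at least 2-fold lower and none higher. Lgals9, galectin 9, a ligand of the T cell receptor TIM-3, had a lowest, median and highest TPM of 0, 0 and 354.1 in Sprr1a-high cells, against 0, 36.1 and 260 in Sprr1a-absent cells, with detection in 22 of 48 and 40 of 45. Cd276 (B7-H3) was detected in 18 of 48 Sprr1a-high and 36 of 45 Sprr1a-absent cells, and Nt5e, which makes adenosine, had medians of 7.12 and 26.3 TPM. Cd80, a ligand of CD28 and CTLA-4, averaged 6.17 TPM in Sprr1a-high and 8.96 TPM in Sprr1a-absent cells and was detected in 70.8% and 77.8%, a difference under 2-fold. Cd274 (PD-L1) averaged 0.436 and 0.368 TPM.

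Genes of antigen presentation were mostly under a 2-fold difference. Of 19 MHC class I genes tested, 2 were at least 2-fold lower, Psmb8 and Erap1, and none higher. H2-K1 averaged 200 TPM in Sprr1a-high and 244.4 TPM in Sprr1a-absent cells, B2m 277.995 and 349.3 TPM, and Tap1 12.4 and 13.9 TPM. The class I median log2 fold was -0.48. Of 6 MHC class II genes tested, 1, Cd74, was at least 2-fold higher and none lower, with a median of 0.34. Of 18 chemokine and cytokine genes, 7 were at least 2-fold lower and 2 higher on mean TPM. On both scales 4 were counted lower and 0 higher. Il24 had a median of 0 TPM in Sprr1a-high and 34.8 TPM in Sprr1a-absent cells, and Tnf was detected in 13 of 48 and 28 of 45. Il1rn, the interleukin 1 receptor antagonist, was on the other side but under a 2-fold difference. It averaged 24.2 TPM in Sprr1a-high and 15.1 TPM in Sprr1a-absent cells. Of 21 interferon response genes, 3 were at least 2-fold lower and none higher.

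Redox and metal-binding genes held some of the largest single differences. Sod1, cytosolic superoxide dismutase, had a lowest, median and highest TPM of 0, 0.92 and 91.98 in Sprr1a-high cells, against 0, 42.2 and 726 in Sprr1a-absent cells, with detection in 24 of 48 and 40 of 45. Mt2, a metallothionein that buffers zinc and copper, had 0, 13.2 and 384.2 in Sprr1a-high cells, against 0, 100 and 13915 in Sprr1a-absent cells. Mt1 had a median of 79.1 in Sprr1a-high and 145.8 in Sprr1a-absent cells, and Ftl1, the ferritin light chain, 98.3 and 613. Of 26 tested genes of the glutathione and NRF2 list, 3 were at least 2-fold higher and 2 lower, with a median log2 fold of 0.09. The higher ones were glutathione transferases of the alpha class: Gsta1 was detected in 33 of 48 Sprr1a-high and 3 of 45 Sprr1a-absent cells, with highest values of 904 and 36.1 TPM, and Gsta4 had a median of 634 in Sprr1a-high and 43.5 in Sprr1a-absent cells. Gpx2, Gsr and Nqo1, other genes of the NRF2 response, had log2 folds of 0.47, 0.15 and 0.87.

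Cell cycle genes were lower on mean TPM in Sprr1a-high cells. Of 20 S phase genes, 5 were at least 2-fold lower and none higher, with a median log2 fold of -0.77, and of 24 genes of G2 and mitosis 6 were lower and none higher, with a median of -0.76. Pcna had a median TPM of 10.96 in Sprr1a-high and 17.1 in Sprr1a-absent cells, and 11 Sprr1a-absent cells lay above every Sprr1a-high cell. Cells with at least 8 genes of G2 and mitosis at a TPM of 5 or more numbered 6 of 48 Sprr1a-high and 11 of 45 Sprr1a-absent cells. With classes set by Sprr1b instead, Pcna, Uhrf1, Ccnb2 and Ccna2 had the opposite sign, so this direction depended on the gene that set the classes. By the stricter count on both scales, 1 gene of each list was lower. The inhibitor Cdkn1a, p21, averaged 296.2 TPM in Sprr1a-high and 264.2 TPM in Sprr1a-absent cells.

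Genes of hypoxia and glycolysis, of RAS and MAPK feedback and of endoplasmic reticulum stress showed little or no split. Of 25 genes of hypoxia and glycolysis, 2 were at least 2-fold lower and none higher, with a median log2 fold of -0.01; Ldha averaged 446.9 TPM in Sprr1a-high and 450 TPM in Sprr1a-absent cells. Of 24 genes of RAS and MAPK feedback, 1 was at least 2-fold higher and none lower, with a median of -0.11, and Hras averaged 67.4 TPM in Sprr1a-high and 81.1 TPM in Sprr1a-absent cells. None of 14 genes of endoplasmic reticulum stress was 2-fold higher or lower, with a median of -0.21. Of 20 genes of autophagy and cell death, 3 were higher and 1 lower, among them Gsdmc, a pore-forming gasdermin, detected in 25 of 48 Sprr1a-high and 5 of 45 Sprr1a-absent cells. Of 19 genes of mucins and other surface proteins, 7 were higher and 4 lower: Ly6d, a surface protein of stratified epithelia, averaged 2293 TPM in Sprr1a-high and 672 TPM in Sprr1a-absent cells, and Aqp3, the epidermal water and glycerol channel, 819 and 308.02 TPM.

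The named genes were then followed across 4 levels of Sprr1a, with 45 cells at 0, 12 at 1 to 10, 19 at 10 to 100 and 29 at 100 and over. The median TPM of Sprr1b was 9.34, 16.5, 65.7 and 1543 in this order, that of Krtdap 26, 23.3, 65.3 and 1786, and that of Krt6b 19.4, 15.2, 47.7 and 994. The median of Lamb3 was 319.4, 247.2, 69.97 and 2.98, that of Col7a1 110, 169.4, 8.78 and 0.93, and that of Itga3 171.9, 203.3, 42.2 and 6.15. Cells at 1 to 10, which the contrast left out, were close to the cells at 0 in both directions. Cells at 10 to 100 lay between these and the highest level. Cnfn was detected in 6.67%, 16.7%, 21.1% and 75.9% of the cells and Gsta1 in 6.67%, 16.7%, 42.1% and 86.2%, so both belonged largely to the cells with the most Sprr1a.

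**Figure D5:**
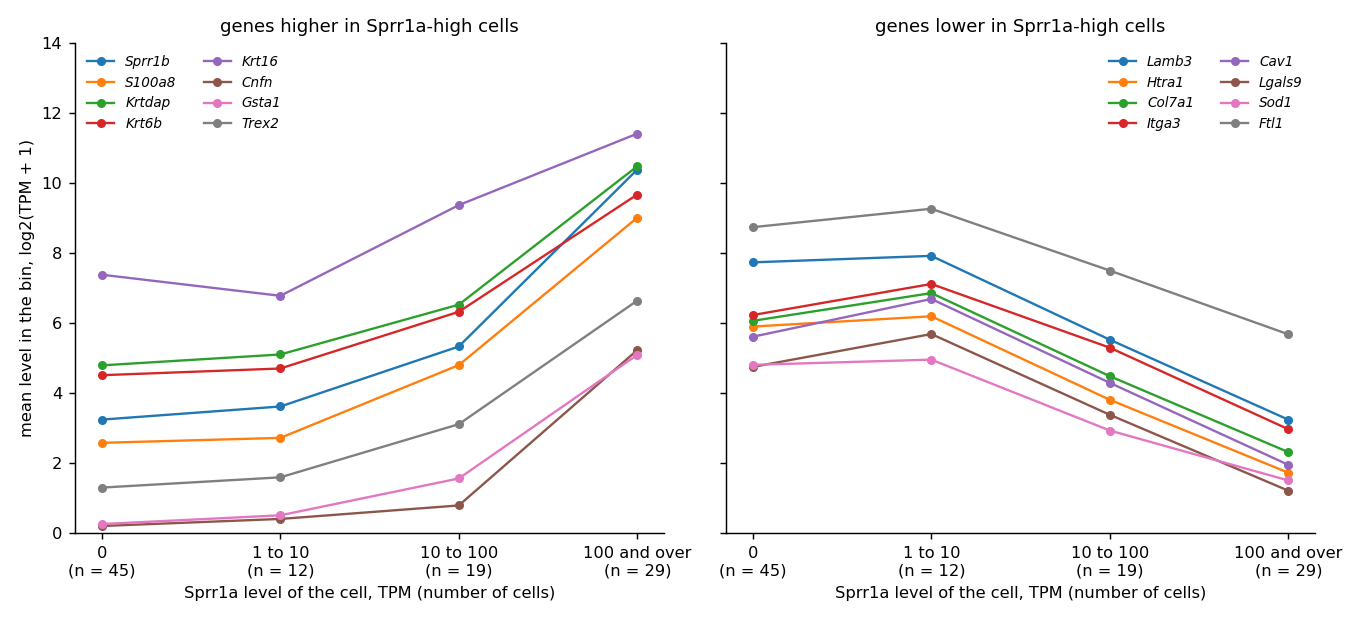
Mean log2(TPM + 1) (y axis) of 8 genes higher (left) and 8 genes lower (right) in Sprr1a-high cells, by the Sprr1a level of the cell (x axis, 4 levels with 45, 12, 19 and 29 cells). The means at 1 to 10 lie near those at 0, and the steps to 10 to 100 and to 100 and over go up on the left and down on the right.

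Within the high class, envelope and basement membrane genes could sit in the same cell. Of 48 Sprr1a-high cells, 16 had both Cnfn and Lamb3 at a TPM of 1, 10 Cnfn alone, 17 Lamb3 alone and 5 neither. Of 45 Sprr1a-absent cells, 3 had both, 41 Lamb3 alone and 1 neither. Summed over the lists, the log2 ratio of envelope to basal TPM had a median of -1.23 in Sprr1a-high cells, with a range of -5.62 to 4.04, and a median of -4.03 in Sprr1a-absent cells, with a range of -6.42 to 0.73. Only 4 Sprr1a-high cells lay above all Sprr1a-absent cells, and 4 Sprr1a-absent cells below all Sprr1a-high cells, so the classes formed 1 overlapping range on this measure. A median of 18 of the 56 listed envelope genes was detected in a Sprr1a-high cell and 12 in a Sprr1a-absent cell.

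The second libraries of the same cells, which did not choose the classes, gave 1.53% of 12834 genes counted higher and 2.31% counted lower. All 20 of the genes named for the largest higher and all 15 named for the largest lower differences were counted the same way there. These libraries repeat the sequencing of the same cells, and say nothing of other cells. Sprr1b had a mean of 1230 TPM in Sprr1a-high and 53.3 TPM in Sprr1a-absent cells in the second libraries, and Lamb3 196.7 and 540.3 TPM. Mt2 had a mean of 81.98 TPM in Sprr1a-high and 264.4 TPM in Sprr1a-absent cells there, and 65.9 and 547 TPM over all cells in the first libraries, which include cells with no second library.

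Sprr1a-high cells made up 45.7% of the kept reporter-positive cells (exact binomial interval 35.96% to 55.7%), with 41.1% on CSC1 and 56.3% on CSC2. Their share was 20.9% of 91 cells in the CD44-negative α6-positive gate (13.1% to 30.7%), 35.7% of 42 cells in the α6-negative gate (21.6% to 51.97%), 7.14% of 14 cells in the reporter-negative CD44-positive gate (0.181% to 33.9%) and 36.8% of the cells after ACT (30.1% to 43.9%). Of the 26 α6-negative cells led by keratinocyte markers, 14 were Sprr1a-high. The intervals are 95% intervals and cover counting error only. The gates differ in the surface proteins they were drawn on, and sorting and cell state cannot be told apart in these shares.

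The same split in the other gates used cells that had no part in choosing the named genes. After ACT, 0.792% of 12123 genes were counted higher and 1.92% lower, with 74 Sprr1a-high cells. Of the 20 genes named higher, 15 were counted higher again and all 20 had the same sign of the mean log2 difference. Of the 15 named lower, 13 were counted lower and all 15 had the same sign. Cnfn averaged 185.3 TPM in Sprr1a-high and 0.356 TPM in Sprr1a-absent cells after ACT, S100a8 1019 and 163.04 TPM, and Lamb3 13.9 and 104.9 TPM. The genes that missed the limit were Krtdap, Clic3, Krt16, BC100530 and Calm4 on the higher side and Tnc and Tm4sf1 on the lower side. The basal and hemidesmosome list had a median log2 fold of -1.71 after ACT, and the G2 and mitosis list -1.23.

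In the CD44-negative α6-positive gate, 0.47% of 12774 genes were counted higher and 0.9% lower, with 19 Sprr1a-high and 56 Sprr1a-absent cells. Of the 20 genes named higher, 10 were counted higher and all 20 had the same sign. The cornified envelope list had a median log2 fold of only 0.21 in that gate, against -0.11 for all genes. Of its 26 tested genes, 9 were at least 2-fold higher and 2 lower. None of the 15 genes named lower was counted lower there, although 12 had the same sign of the mean log2 difference. Lamb3 averaged 86.9 TPM in Sprr1a-high and 71.9 TPM in Sprr1a-absent cells of that gate and Itga3 58.6 and 55.3 TPM, while Sprr1b averaged 260.9 and 51.7 TPM. Its highest Sprr1a value was 722 TPM, against 17669 TPM in the reporter-positive gate, so its high class reached less far. The cell cycle lists were lower there as well, with a median log2 fold of -0.98 for S phase and -0.79 for G2 and mitosis.

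Over all α6-negative cells, 16 of 19 tested genes named higher and 8 of 13 named lower were counted the same way. On mean TPM alone, a looser limit, 1967 of all 13294 genes tested there were at least 2-fold higher and 3689 at least 2-fold lower. Of the 25 Sprr1a-absent cells there, 15 were not led by keratinocyte markers, so cell type and Sprr1a cannot be told apart. Among the α6-negative cells led by keratinocyte markers, a selection added after seeing the data, 4.64% of 13937 genes were counted higher and 10.8% lower, from 14 Sprr1a-high and 10 Sprr1a-absent cells. Of 19 tested genes named higher, 14 were counted higher, and of 13 tested genes named lower, 3 were counted lower. Lamb3 was hardly present, at 0 and 0.133 TPM in the 2 classes, and could not be split there. Col7a1 averaged 84.2 TPM in Sprr1a-high and 0.667 TPM in Sprr1a-absent cells, opposite in sign to the reporter-positive gate. Its log2 fold was 5.68 but its mean log2 difference only 0.50, so it was not counted there. Whether the split differs between gates was not tested, since each gate is 1 sample.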

How the data were processed

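The authors deposited TPM per gene and library in 2 tables, 362 libraries labelled before and 546 after therapy. Per the submitters' processing notes, Bowtie2 2.2.9, RSEM 1.2.30 and mm10 were used; the labels do not say what was done with reads of several origins or with spike-in reads. The unit marked "other" was given to 17 near-empty wells, whose deposited values are whole numbers; none was used. The tables hold 46517 gene rows and 92 spike-in rows, and 46005 identifiers matched GENCODE M21. Members and gene lists were chosen with earlier results of these data known. Named genes are Sprr1a, Sprr1b and Cnfn, the 20 counted genes with the largest positive and the 15 with the largest negative mean log2 difference (same sign on both plates), up to 4 genes of each of 32 lists, the sort gate genes, and the genes within 1000 kb of Sprr1a; others named in the text were chosen after their values were seen. A few genes that fall under this rule are not reported here. Repeat libraries were found by Pearson correlation of log2(TPM + 1): mutual best matches ahead by 0.05, or r of at least 0.88. In other gates repeats were averaged, and plates OT_C and OT_D were left out. Each library is 1 sorted well; no doublet caller was run. TPM keeps no read depth, so no read-based error could be given. Analyses used Python 3.11.15. The contrast was run on simulated data with planted differences well above the 2-fold limit. That run does not bear on counts near this limit. Alternatives changed the pseudocount, filter, Sprr1a limits, plates, genes per cell, scaling, repeats and the gene that sets the classes.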

Additional observations from a re-analysis of the deposited data

How the results depend on the processing

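Shares are percentages of tested genes counted higher and lower in Sprr1a-high cells, 1.58% and 2.31% as reported. They were 0.683% and 0.629% with a pseudocount of 10, 2.51% and 6.15% with Sprr1a-high at 100 TPM or more, 4.20% and 5.75% without plate CSC1, and 3.04% and 1.43% with classes set by Sprr1b. Without a filter they were 0.439% and 0.641%, since 46516 genes were then tested. The higher share was 2.41% when TPM were rescaled without spike-in and ribosomal rows, where the median log2 fold of all genes was -0.20. The lower share was 0.696% with Sprr1a-high at 1 TPM or more. All other settings gave shares within 1.5 times those reported. The cornified envelope median, 2.41, was 3.13 with a pseudocount of 0.1, 0.86 with 10, 0.61 without a filter, 1.78 with a filter of 30% of cells, 3.05 at 100 TPM and 1.70 without plate CSC2. The share of Sprr1a-high cells, 45.7%, was 27.6% at 100 TPM and 56.25% without plate CSC1. Without plate CSC1 the log2 folds of Prr9 and Sprr2d were -1.25 and -0.18, opposite to the reported sign. With classes set by Sprr1b those of Uhrf1, Pcna, Ccnb2 and Ccna2 were 0.14, 0.16, 0.97 and 1.29, also opposite. The cause was not tested. Of 559 values for the 35 genes named for their size or as markers, 96 moved by 1.5-fold or more and none changed sign. These genes were chosen in the same cells, by size and by the same sign on both plates. That choice left little room for a change of sign. Leaving out libraries with over 10% spike-in TPM, a setting added after seeing the data, kept both shares within 1.5 times. No paired analysis was possible because no result comes from a test and the labels give no shared replicate numbers. TPM keep no depth, so undetected genes may be missed rather than absent, and with 1 sample per gate the values describe these cells only.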
